A study of Sparus aurata with 9 samples.

Results

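The response of cultured muscle cells of a teleost, the gilthead sea bream (Sparus aurata), to the return of amino acids was followed in 6 small RNA libraries, 3 from cells that were given amino acids back (AA) and 3 from control cells that stayed in restriction (CTR), out of 9 libraries in all. The comparison takes in every one of the 862 entries of the deposited miRNA table and is given by miRNA number and by arm. All cells were primary cultures taken from fast-twitch muscle and kept until day 8 in complete growth medium, when dividing cells and fusing cells were both present. AA cells then spent 12 h in nutrient restriction medium and 24 h with amino acids. CTR cells spent 36 h in the restriction medium. The remaining 3 libraries (IGF1) came from cells held for 12 h in restriction and for 24 h with insulin-like growth factor 1, and appear only where they help to place a value. According to the study's methods, the restriction medium was a salt solution with vitamins and glucose and the amino acids came as DMEM, a complete culture medium, so that the AA and CTR media differed in more than amino acids. The study used 3 independent cultures. Which libraries share a culture is not labelled, and p-values here measure only the spread between these libraries.

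A miRNA is cut from a hairpin precursor, and each side of the hairpin can leave a product, the 5p and the 3p arm. Usually 1 arm is loaded into Argonaute and guides it to target mRNAs, and most of the other arm is degraded. Pairing to a target rests mainly on the seed, bases 2 to 8 of the mature sequence, so that a product starting 1 base earlier or later has another seed. In vertebrate skeletal muscle, miR-1, miR-133 and miR-206 are known from mammals and fish as muscle miRNAs whose levels climb as myoblasts differentiate, and miR-499 lies within a myosin heavy chain gene. Here the arm with the larger mean over the 9 libraries is called the major arm of a miRNA number, and the other one the minor arm.

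The sequences below are those on which the results turn, as the deposited table gives them (5′ to 3′, with T for U and the seed in capitals). The first 9 show both arms of the 4 muscle miRNA numbers, of which the 5p products of miR-1, miR-206 and miR-133 and the 3p product of miR-499 are the minor arms.
miR-1-5p: aCATACTTctttatgtacccat
miR-1 (3p): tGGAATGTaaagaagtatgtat
miR-206-5p: aCATGCTTccttatatccccata
miR-206 (3p): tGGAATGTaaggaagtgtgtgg
miR-133a-2-5p: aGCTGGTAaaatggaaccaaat
miR-133b-5p: gCTGGTCAaacggaaccaagtc
miR-133a and miR-133b (3p): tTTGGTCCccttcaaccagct
miR-499b-3p: aACATCACtttaagtctgtgct
miR-499 (5p): tTAAGACTtgcagtgatgttta

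The 3p products of miR-1 and miR-206 carry the same seed, GGAATGT, whereas their 5p products have different ones, CATACTT and CATGCTT. The next set shows the other sequences that were higher in AA cells, with miR-217 of the opposite arm for comparison. The 2 products of the miR-181b 3p arm differ by a final a, and another product of that arm begins 1 base earlier and so has another seed.
mir-217-p3: cAACAGTAcctgatgcattgcc
miR-217 (5p): tACTGCATcaggaactgattggc
miR-145-3p: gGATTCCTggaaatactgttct
miR-7133-3p: tAGTTTGAtacacagcacaata
miR-7133 (5p): gATGTTGAgtatcaaactgta
miR-181b-3p: cTCACTGAacgatgaatgcaa
PC-3p-5483_456 (predicted candidate): cTCACTGAacgatgaatgcaaa
miR-181b-3-3p: gCTCACTGaacgatgaatgcaa

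The last set holds the sequences that were lower in AA cells, with the 3p product of miR-29a and a second miR-203 product that starts 1 base later than the first.
mir-29d-p5: aCTGGTTTcagatggtgtcttaga
mir-29a-1-p5: aCCGTTTTcctctggtgttcaga
miR-29a (3p): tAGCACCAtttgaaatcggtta
miR-203a: gTGAAATGtttaggaccacttg
miR-203a-3p: tGAAATGTttaggaccacttga

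Values are normalized reads, scaled between libraries by the authors, and tests are limma on log2(normalized reads + 1) with Benjamini-Hochberg adjustment. A library's low values are mostly whole multiples of 1 step, which gives its depth as 9.77e6 to 1.12e7 reads in AA libraries and 7.05e6 to 8.01e6 in CTR libraries (mean difference 2.96e6 reads, exact permutation p = 0.1, the smallest that 3 against 3 can give). Most entries are listed only from 5 reads on, worth 3.86 to 4.62 normalized reads in AA libraries and 5.54 to 6.04 in CTR libraries, so that a listed 0 need not be a count of 0. AA libraries had 112 to 119 entries listed at 0, against 156 to 191 in CTR libraries. Replicates spread less in AA than in CTR libraries (mean SD of log2 values 0.34 and 0.54). Values listed at 0 enter this spread, in 13 tested entries for AA and 38 for CTR libraries, and their part in it was not tested. CTR replicate 1 decided more calls than any other library: without it, 40 entries passed the threshold of 0.05 instead of 14, and those 14 were among them. As the label of muscle cells asks, muscle miRNAs were abundant, with 720535 to 871345 normalized reads in AA libraries and 502772 to 701241 in CTR libraries; 4 of the 6 muscle miRNA numbers looked for were listed. Markers of other cell types were present as well. Of these, the endothelial miR-126 summed to 99099 to 106527 normalized reads in AA libraries and 89392 to 112133 in CTR libraries. The smooth muscle and fibroblast miRNAs miR-143 and miR-145 summed to 120547 to 132333 in AA libraries and 103464 to 116460 in CTR libraries, which did not overlap, and the part of such cells in the results was not tested. Blood miRNAs summed to 1861 to 2963 in AA libraries and 1634 to 3167 in CTR libraries, and neural miRNAs to 1088 to 1151 in AA libraries and 967 to 1282 in CTR libraries. Liver and intestine miRNAs summed to 933 to 1069 in AA libraries and 1159 to 1262 in CTR libraries, which did not overlap. Within this list only miR-122 was separated, at 296 to 382 in AA libraries and 508 to 601 in CTR libraries. The groups overlapped in miR-192 (169 to 301 in AA and 193 to 222 in CTR libraries) and in both arm sums of miR-194. In such a mixed culture, fewer cells of a type and less of a miRNA per cell cannot be told apart.

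Of the 862 entries, 594 were tested because 3 or more of the 9 libraries reached 10 normalized reads, and 268 were not. Amino acids were followed by higher levels of a small group of miRNAs, most of them minor arms, and by lower levels of a few others. Significantly different levels between AA and CTR cells were found for 14 entries (2.36% of those tested), of which 11 were higher (1.85%) and 3 lower (0.505%) in AA cells. Of these 14, 8 were minor arms, 5 were major arms and 1 was a predicted candidate without a miRNA name. Among all 565 distinct sequences tested, 181 were minor arms, 231 were major arms and 113 were predicted candidates. Arms were classed by miRNA number, so mir-29d-p5 and mir-29a-1-p5 count as major arms although both were scarce beside miR-29a (3p). The 3 AA libraries lay on one side of the 3 CTR libraries in all 14, a separation that also held upwards for 75 (12.6%) and downwards for 59 (9.93%) of the tested entries. No called entry was listed at 0 in any library, and none had all AA or all CTR libraries under the minimum of 10. With no adjustment, 98 entries had p under 0.05.

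**Figure D1:**
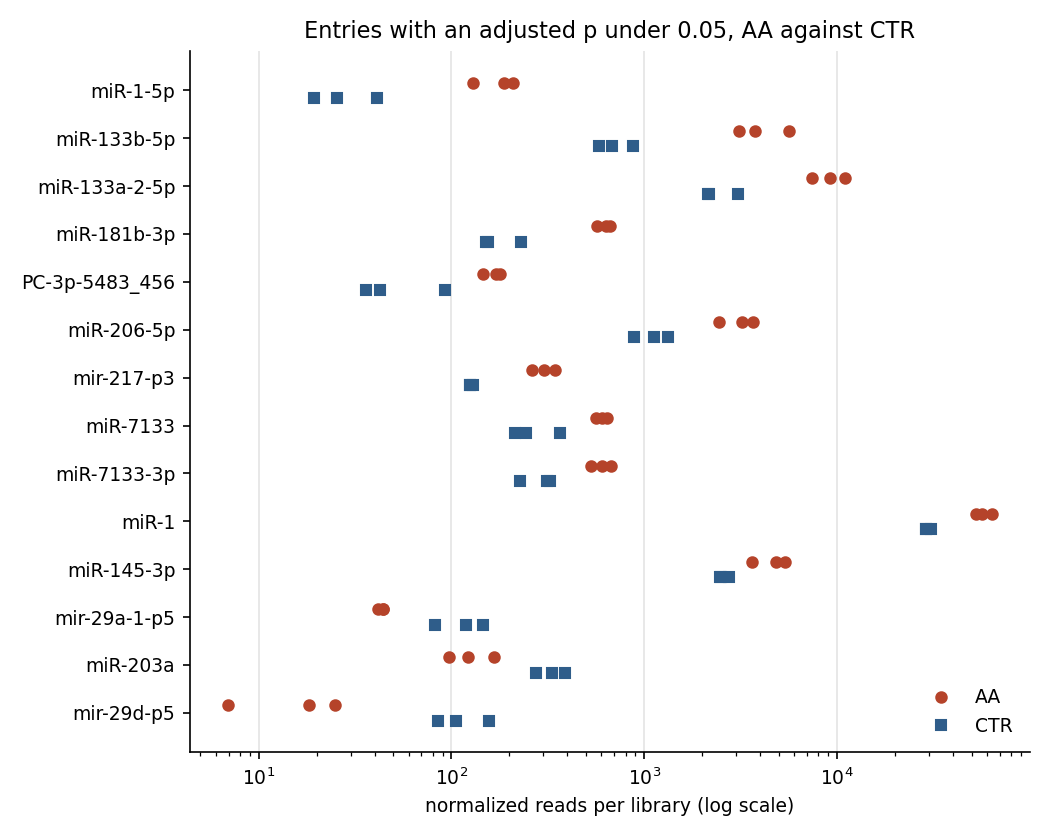
Normalized reads (log10 axis) of the 14 entries that differed between AA and CTR cells, with 1 point per library (AA, red circles; CTR, blue squares). In each of the 14 the AA points lie entirely above or entirely below the CTR points; mir-29d-p5, miR-203a and mir-29a-1-p5 are the 3 with the AA points below.

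When sequences were summed by miRNA number and arm, 207 of 226 sums were tested and 15 were higher (7.25%) and 4 lower (1.93%) in AA cells. Among 5p sums, 7 of 91 tested were higher and 0 lower. Among 3p sums, 8 of 92 were higher and 1 was lower. Of the 24 tested sums whose arm could not be told from the names or by likeness to a named arm, 3 were lower and 0 higher. At an unadjusted p under 0.05 in either direction, limma gave 18 of the 5p sums, 20 of the 3p sums and 6 of those without an arm.

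The muscle miRNAs formed the clearest group. All 13 of their distinct sequences had values above 0 for the log2 difference between AA and CTR cells (median 0.96, against 0.09 over all 565 distinct sequences tested), 5 were significantly higher, 9 had an unadjusted p under 0.05, and in 11 of 13 the AA libraries lay above all CTR libraries. The 5 products of the 5p arms had a median difference of 1.90 with 4 called, and the 8 products of the 3p arms a median of 0.65 with 1 called. Over all 565 distinct sequences tested, 11 were called higher and limma gave 94 an unadjusted p under 0.05 in either direction. In 73 of the 565 the AA libraries lay above all CTR libraries. The muscle miRNAs were chosen with earlier results of these data known, so their counts describe them and test nothing further.

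miR-1-5p had 130, 188 and 209 normalized reads in AA libraries, against 19.3, 25.4 and 41.0 in CTR libraries. Every AA library had more than 3 times the reads of any CTR library. The difference was 2.62 on the log2 scale (SE 0.31, adjusted p = 0.00185, n = 3 each). The product of the opposite arm, miR-1 (3p), had 52799, 63283 and 56657 normalized reads in AA libraries and 28884, 29022 and 30736 in CTR libraries. The CTR libraries hardly differed among themselves and lay well under the AA libraries, but the log2 difference of 0.96 was smaller than that of the 5p arm (SE 0.13, adjusted p = 0.00393). A pair of longer, scarcer miR-1 products had log2 differences of 0.65 (adjusted p = 0.258) and 1.08 (adjusted p = 0.342). Summed, the 3 miR-1 3p products differed by 0.96 (adjusted p = 0.00209).

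miR-206 is the most abundant muscle miRNA here. Its minor arm miR-206-5p had 2432, 3198 and 3684 normalized reads in AA libraries, against 884, 1331 and 1128 in CTR libraries. The groups were well apart, with a log2 difference of 1.48 (SE 0.23, adjusted p = 0.00626). The major arm miR-206 had 571305, 656654 and 698837 normalized reads in AA libraries and 414701, 608549 and 541240 in CTR libraries. These groups overlapped, because CTR replicate 2 exceeded AA replicate 1. The log2 difference of 0.31 did not pass the threshold (SE 0.16, adjusted p = 0.347), with a 95% interval of -0.04 to 0.67. Longer products of this arm had differences of 0.47 (adjusted p = 0.347) and 0.02 (adjusted p = 0.978); the last of these turned to values between -0.28 and -0.0039 under 3 other scalings or without AA replicate 3 or CTR replicate 3.

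miR-133, in mammals a regulator of myoblast proliferation, comes from hairpins that differ in their 5p products. Their 3p products are listed here under the same sequence, so its reads cannot be assigned to a single hairpin. miR-133a-2-5p had 7450, 9171 and 10939 normalized reads in AA libraries, against 3056, 2180 and 2152 in CTR libraries, a log2 difference of 1.90 (SE 0.20, adjusted p = 0.000985). miR-133b-5p had 3759, 3086 and 5632 normalized reads in AA libraries, against 683, 585 and 874 in CTR libraries, a log2 difference of 2.51 (SE 0.40, adjusted p = 0.00761). In both, the lowest AA library had more than double the highest CTR library. The shared 3p sequence had 77497, 96256 and 89458 normalized reads in AA libraries and 50288, 56034 and 60779 in CTR libraries. It too was separated, though by less. As an entry the difference of 0.65 missed the threshold (SE 0.16, adjusted p = 0.0689), and as a sum, adjusted over fewer tests, it passed (adjusted p = 0.0345), a call lost in 10 of 22 alternatives. The sum of the 5p products differed by 2.06 (SE 0.22, adjusted p = 0.0007), the lowest adjusted p among the 207 sums.

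miR-499 had the reverse order of arms, 5p being the major one. Its minor arm miR-499b-3p had 243, 224 and 154 normalized reads in AA libraries, against 117, 46.1 and 49.8 in CTR libraries. CTR replicate 1 stood closer to the AA libraries than to the other CTR libraries, but the groups did not overlap. The log2 difference was 1.64 (SE 0.40, adjusted p = 0.068 as an entry and 0.0334 as a sum), and the sum lost its call in 5 of 22 alternatives. That sum holds only this 1 sequence and was adjusted over fewer tests. The major arm miR-499 had 3531, 4796 and 3738 normalized reads in AA libraries and 2946, 2051 and 1765 in CTR libraries, a log2 difference of 0.86 that did not pass the threshold (SE 0.24, adjusted p = 0.111 as an entry and 0.0553 as a sum).

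Whether 1 arm moved more than the other was tested within each library, as the log2 ratio of the minor to the major arm. The scaling of the libraries has almost no bearing on this measure. Each arm was summed over all products of a number, 2 of 5p and 1 of 3p for miR-133, and 5 and 7 for miR-19. A change in the mix of hairpins of a number and a change between the arms of 1 hairpin therefore cannot be told apart. Of 94 miRNA numbers with both arms, 84 were tested. The minor arm took a significantly larger share in AA cells in 6 of them (7.14%), namely miR-206, miR-1, miR-217, miR-365, miR-133 and miR-19, and a significantly smaller share in 0, although 32 of the 84 ratios were below 0 and limma gave 14 ratios an unadjusted p under 0.05 in either direction. The median log2 ratio difference was 0.17, with 52 of 84 above 0. The AA libraries lay above all CTR libraries in 14 numbers and below in 3.

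**Figure D2:**
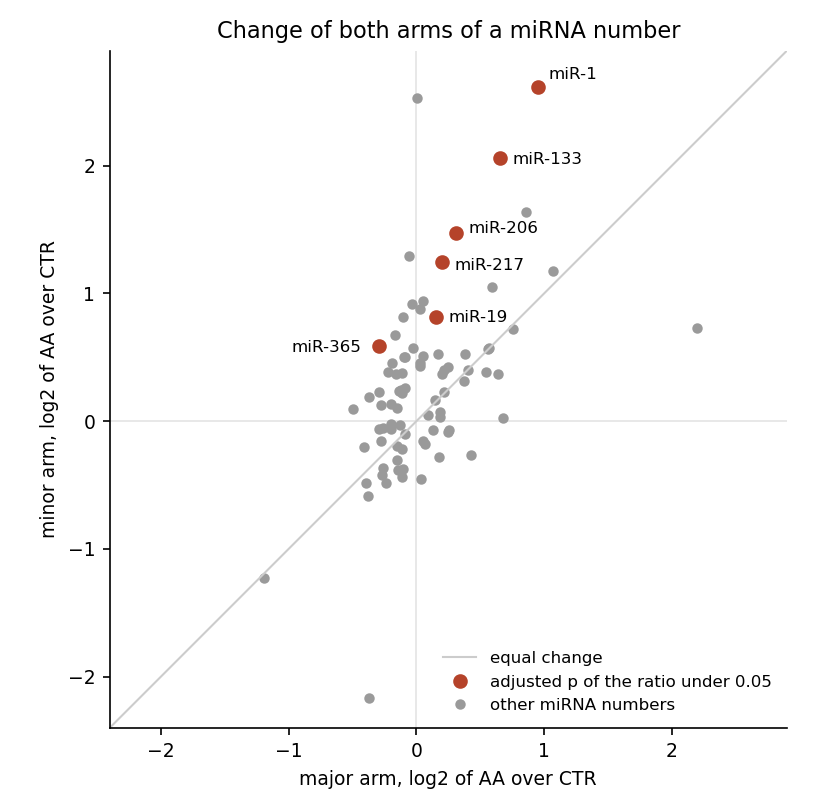
Log2 difference between AA and CTR cells of the minor arm (vertical axis) against that of the major arm (horizontal axis) for the 84 miRNA numbers tested, with a line of equal change. The 6 numbers whose arm ratio differed are labelled and lie above the line; miR-1 has values of 2.62 and 0.96, and miR-206 of 1.48 and 0.31.

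The 5p arm made up 0.423, 0.484 and 0.523% of all miR-206 reads in AA libraries, against 0.212, 0.218 and 0.208% in CTR libraries. The CTR libraries agreed to within 0.0052 percentage points (SD), and the log2 ratio differed by 1.16 (SE 0.15, adjusted p = 0.00177). For miR-1, the 5p arm made up 0.242, 0.294 and 0.363% in AA libraries, against 0.0662, 0.0861 and 0.131% in CTR libraries, a log2 ratio difference of 1.66 (SE 0.31, adjusted p = 0.0167). The share of the miR-133 5p arm was far larger, at 12.6, 11.3 and 15.6% in AA libraries and 6.92, 4.70 and 4.74% in CTR libraries, a log2 ratio difference of 1.41 (SE 0.32, adjusted p = 0.0274). In these 3 muscle miRNAs, every AA library exceeded every CTR library. The call of miR-206 held in all 18 alternatives, and those of miR-1 and miR-133 were lost in 3 and 6 of them. The arm ratio of miR-499 did not pass, with a 3p share of 6.43, 4.46 and 3.96% in AA libraries and 3.82, 2.20 and 2.75% in CTR libraries (log2 ratio difference 0.78, SE 0.35, adjusted p = 0.266, 95% interval -0.01 to 1.57), although its groups did not overlap either.

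The other 3 numbers are not muscle miRNAs. The minor 3p arm of miR-217 took 1.45, 1.48 and 1.11% in AA libraries, against 0.750, 0.567 and 0.646% in CTR libraries (log2 ratio difference 1.04, SE 0.22, adjusted p = 0.0238). The 5p arm of miR-365 took 1.56, 1.34 and 1.43% in AA libraries, against 0.626, 0.790 and 0.987% in CTR libraries (0.88, SE 0.19, adjusted p = 0.0238). The 5p arm of miR-19, a member of the miR-17 to 92 clusters, took 0.847, 0.832 and 0.706% in AA libraries, against 0.464, 0.458 and 0.600% in CTR libraries (0.66, SE 0.16, adjusted p = 0.036). None of these groups overlapped, and the calls of miR-217, miR-365 and miR-19 were lost in 4, 5 and 10 of 18 alternatives. In miR-365 the arms had differences of opposite sign, 0.59 for 5p (adjusted p = 0.109) and -0.29 for 3p (adjusted p = 0.332), and neither arm alone passed the threshold. The next numbers, miR-15 (0.60, adjusted p = 0.0627) and miR-145 (0.93, adjusted p = 0.0726), missed it.

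**Figure D3:**
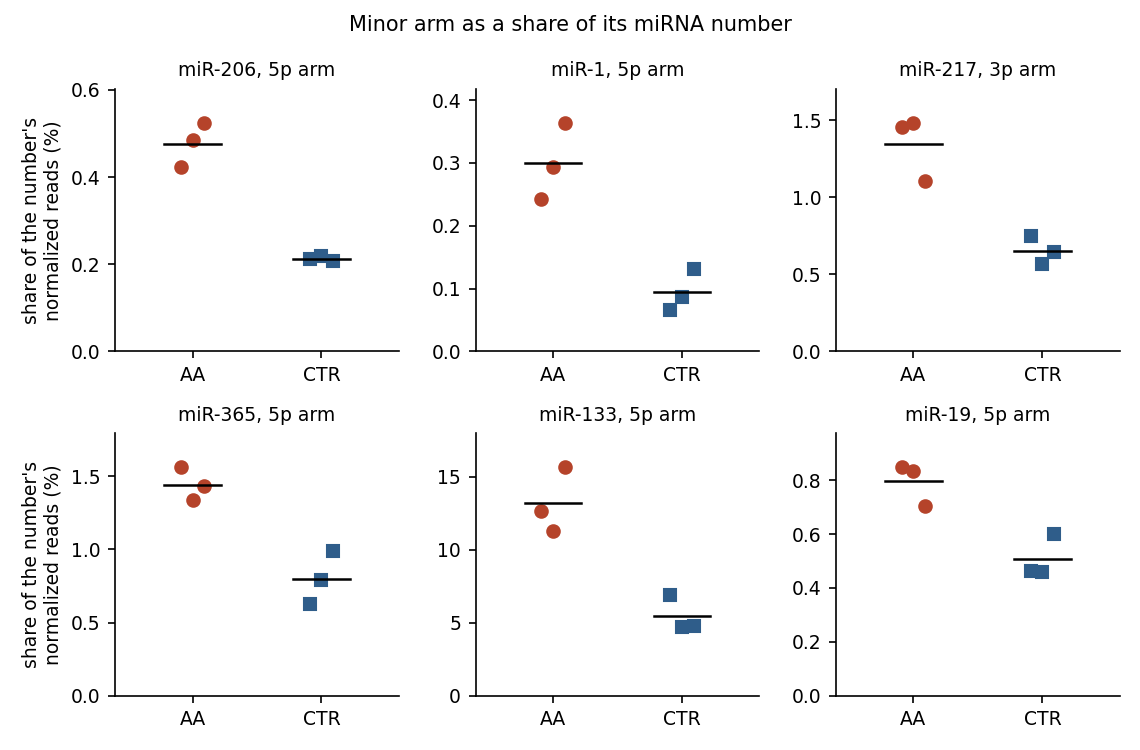
Share of the minor arm among all normalized reads of a miRNA number (percent) in each AA (red circles) and CTR (blue squares) library. Each of the 6 numbers whose arm ratio differed has its own panel with its own linear axis, and black lines mark the group means. All AA points lie above all CTR points in the 6 numbers, from miR-1 5p at 0.242 to 0.363% against 0.0662 to 0.131% up to miR-133 5p at 11.3 to 15.6% against 4.70 to 6.92%.

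Minor arms as a whole leaned upwards in AA cells. The class is that of the miRNA number, so the scarce mir-29d-p5 and mir-29a-1-p5, both called lower, are counted here as major arms. Of 181 tested minor arm sequences, 129 had values above 0 and 52 below, with a median log2 difference of 0.23, 8 called higher and 0 lower (limma, 41 at an unadjusted p under 0.05). Of 231 major arm sequences, 117 were above 0 and 114 below, with a median of 0.001, 2 called higher and 3 lower. Level moved with this: the median of all tested sequences was 0.20 for a mean under 100 normalized reads and -0.08 for a mean of 10000 or more. Among sequences with a mean of at least 100, the minor arms still had a median of 0.18 (115 sequences, 77 above 0) and the major arms of 0.0001 (171 sequences, 86 above 0). Below 100, the medians were 0.39 for 66 minor arms and 0.01 for 60 major arms. Depth was greater and the listing minimum lower in AA libraries. Scarce entries could also pass the minimum of 10 without one of the groups. Of the tested entries, 14 were under it in every CTR library and 9 in every AA library. The part of depth, listing minimum and filter in these medians was not tested. The same 6 arm ratios passed with a pseudocount of 10, with a minimum of 50 normalized reads and with every value below the highest listing minimum set to it. The last of these changed no value in the 6 ratios. Their lowest arm sum, miR-1 5p in CTR replicate 1, was 19.3 normalized reads, above the highest listing minimum of 6.04. Leaving out CTR replicate 2 or AA replicate 2 left 1 arm ratio, that of miR-206, and leaving out CTR replicate 1 gave 17.

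Outside the muscle miRNAs, the entry with the lowest adjusted p was miR-181b-3p, from a family whose 5p arm is known in mammals for roles in immune and muscle cells. It had 570, 662 and 633 normalized reads in AA libraries, against 229, 151 and 154 in CTR libraries. The AA libraries lay close together and far above the CTR libraries, at a log2 difference of 1.82 (SE 0.19, adjusted p = 0.000985). The predicted candidate PC-3p-5483_456, the same sequence with a further a at the 3′ end, had 146, 179 and 171 normalized reads in AA libraries, against 36.2, 42.7 and 93.0 in CTR libraries. Its CTR replicate 3 was high, and the log2 difference was 1.63 (SE 0.33, adjusted p = 0.028); this call was lost in 8 of 23 alternatives. miR-181b-3-3p, which starts 1 base earlier, had 85.0, 117 and 114 normalized reads in AA libraries and 83.3, 75.0 and 45.4 in CTR libraries. The groups nearly met, and the difference of 0.66 did not pass (SE 0.28, adjusted p = 0.273). A further miR-181b-3p product from another precursor had a difference of 0.64 (adjusted p = 0.388). The family's arms as sums differed by 0.57 for 3p (adjusted p = 0.154) and -0.03 for 5p (adjusted p = 0.893, 95% interval -0.35 to 0.29), and its 14 listed sequences included 13 tested, with a median of 0.32 and 1 called.

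miR-216 and miR-217, known in vertebrates as pancreatic miRNAs that lie in 1 cluster, were well expressed in these cultures. mir-217-p3 had 262, 346 and 301 normalized reads in AA libraries, against 129, 125 and 125 in CTR libraries. The CTR libraries were almost equal and every AA library was at least double them. The log2 difference was 1.25 (SE 0.17, adjusted p = 0.00337). The major arm miR-217 had 17714, 22996 and 26825 normalized reads in AA libraries and 17028, 21790 and 19210 in CTR libraries, which overlapped, at a difference of 0.21 (SE 0.18, adjusted p = 0.575). For miR-216, the sum of 4 products of the 5p arm, mainly miR-216b, had 17631, 22739 and 20123 normalized reads in AA libraries and 14592, 13497 and 12592 in CTR libraries, a log2 difference of 0.57 (SE 0.14, adjusted p = 0.0305), a call lost in 7 of 22 alternatives. Its 3p sum had nearly the same difference, 0.58, but did not pass (SE 0.17, adjusted p = 0.0711).

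miR-7133 was higher on both arms. miR-7133-3p had 603, 671 and 532 normalized reads in AA libraries, against 324, 227 and 315 in CTR libraries, and a log2 difference of 1.07 (SE 0.20, adjusted p = 0.0191). miR-7133 of the 5p arm had 645, 606 and 562 normalized reads in AA libraries, against 366, 213 and 243 in CTR libraries, and a difference of 1.18 (SE 0.23, adjusted p = 0.0241). The arms were almost equally abundant, and neither overlapped between the groups. As entries these calls were lost on leaving out single libraries (3 and 5 alternatives). Each of the 2 sums holds only 1 sequence, so the same values were adjusted over 207 instead of 594 tests. In that form both passed in all 22 alternatives.

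miR-145-3p had 3629, 4809 and 5366 normalized reads in AA libraries, against 2512, 2748 and 2467 in CTR libraries. AA replicate 1 was the lowest of its group and still above every CTR library. The log2 difference of 0.82 passed the threshold (SE 0.16, adjusted p = 0.0271) but was lost in 8 of 23 alternatives, which gave adjusted p between 0.00143 and 0.222. The major arm miR-145, known from smooth muscle and fibroblasts, had 11716, 11686 and 17810 normalized reads in AA libraries and 10437, 17846 and 16380 in CTR libraries, which overlapped (log2 difference -0.11, SE 0.26, adjusted p = 0.849). miR-143, its cluster partner, had 59208, 56833 and 53426 normalized reads in AA libraries and 58786, 52314 and 53297 in CTR libraries (0.04, SE 0.10, adjusted p = 0.846).

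A few more arms passed as sums but not as single entries. Sums were adjusted over fewer tests, and that of the miR-7147 5p arm holds only 1 sequence. The 3p arm of miR-33, known in mammals from sterol metabolism, had 1727, 1684 and 1395 normalized reads in AA libraries and 1087, 995 and 1093 in CTR libraries (log2 difference 0.59, SE 0.14, adjusted p = 0.0264). The 5p arm of miR-7147 had 267, 230 and 210 normalized reads in AA libraries and 141, 126 and 148 in CTR libraries (0.76, SE 0.17, adjusted p = 0.0264). The 5p arm of miR-19 had 436, 446 and 365 normalized reads in AA libraries and 277, 176 and 267 in CTR libraries (0.81, SE 0.19, adjusted p = 0.028). In each, all AA libraries exceeded all CTR libraries. The miR-19 3p arm, by contrast, had overlapping groups and a difference of 0.16 (adjusted p = 0.6). The 3p arm of miR-736 had a large but uneven difference of 2.20 (SE 0.55, adjusted p = 0.0334), with 138, 92.4 and 60.0 normalized reads in AA libraries and 39.9, 8.07 and 21.0 in CTR libraries. These 4 sums lost their call in 4 to 6 of 22 alternatives.

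Among the miRNAs lower in AA cells were a pair of 5p products of the miR-29 family. The 3p arm of this family is known in mammals for targeting collagen and other matrix transcripts, and these 5p products have other seeds. mir-29d-p5 had 6.95, 18.3 and 24.9 normalized reads in AA libraries, against 85.7, 157 and 105 in CTR libraries. It was scarce in AA libraries, with replicate 1 close to the listing minimum. The log2 difference was -2.84 (SE 0.43, adjusted p = 0.00626), and the call held in all 23 alternatives. mir-29a-1-p5 had 41.7, 44.1 and 44.3 normalized reads in AA libraries, against 82.1, 145 and 119 in CTR libraries, with AA values almost equal to each other and a log2 difference of -1.35 (SE 0.23, adjusted p = 0.00994). Over all 565 distinct sequences tested, 234 had values below 0, 3 were called lower and in 52 the AA libraries lay below all CTR libraries. Of the 6 tested 5p products of miR-29, all had values below 0 (median -0.74, 2 called lower), and in 4 of them the AA libraries lay below all CTR libraries. The abundant ones among them, from miR-29b and miR-29c, had differences of -0.56 (adjusted p = 0.12), -0.41 (adjusted p = 0.186) and -0.15 (adjusted p = 0.702). Of the 6 tested 3p products, all had values above 0, between 0.08 and 0.30, and 0 were called, the lowest adjusted p being 0.667. miR-29a (3p) had 6780, 6517 and 5207 normalized reads in AA libraries and 8060, 4109 and 5016 in CTR libraries, with AA values inside the CTR range. The arm sums, with 5p as the major arm, differed by -0.37 for 5p (SE 0.14, adjusted p = 0.162) and 0.19 for 3p (SE 0.26, adjusted p = 0.666). The arm ratio, the direct test between the arms, did not pass, with overlapping groups (3p over 5p, log2 ratio difference 0.56, SE 0.36, adjusted p = 0.391, 95% interval -0.25 to 1.37).

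miR-203, a miRNA known from vertebrate epidermis, was found as a pair of products that differ by 1 base at the 5′ end. miR-203a had 97.3, 122 and 166 normalized reads in AA libraries, against 334, 389 and 276 in CTR libraries, and a log2 difference of -1.39 (SE 0.23, adjusted p = 0.00994). miR-203a-3p, starting 1 base later, had 57.2, 78.7 and 91.0 normalized reads in AA libraries, against 141, 172 and 157 in CTR libraries, and a difference of -1.06 that missed the threshold (SE 0.25, adjusted p = 0.0603). Neither product overlapped between the groups, and their sum differed by -1.28 (SE 0.22, adjusted p = 0.00699), a call that held in all 22 alternatives. The epithelial list as a whole, 10 sequences of 4 of its 5 numbers, summed to 425 to 515 normalized reads in AA libraries and 682 to 817 in CTR libraries; 5 of its sequences were tested, with a median of -0.30 and 1 called lower. miR-203 carried this difference: miR-200 3p had 256, 235 and 228 normalized reads in AA libraries and 225, 236 and 223 in CTR libraries, which overlapped (0.07, SE 0.18, adjusted p = 0.821). Whether the share of epithelial cells differed was not tested.

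The remaining lower sums had no named arm. miR-122, known from vertebrate liver, had 296, 382 and 322 normalized reads in AA libraries, against 601, 584 and 508 in CTR libraries (log2 difference -0.76, SE 0.17, adjusted p = 0.0264). miR-10926 had 279, 192 and 229 normalized reads in AA libraries, against 667, 606 and 332 in CTR libraries (-1.14, SE 0.26, adjusted p = 0.0264). Of its 3 sequences, 2 had 294 and 109 normalized reads in CTR replicate 1, so much of that library's sum came from the remaining sequence. In the other AA and CTR libraries these 2 made up nearly all of the sum. miR-551 had 409, 407 and 391 normalized reads in AA libraries, against 504, 750 and 591 in CTR libraries (-0.59, SE 0.16, adjusted p = 0.0477), and lost its call in 15 of 22 alternatives. The miR-551 sum holds 1 sequence, which was not called as an entry. In all 3 the AA libraries lay below the CTR libraries, most narrowly in miR-10926 and miR-551. miR-122 and miR-10926 lost their calls in 3 and 4 of 22 alternatives.

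**Figure D4:**
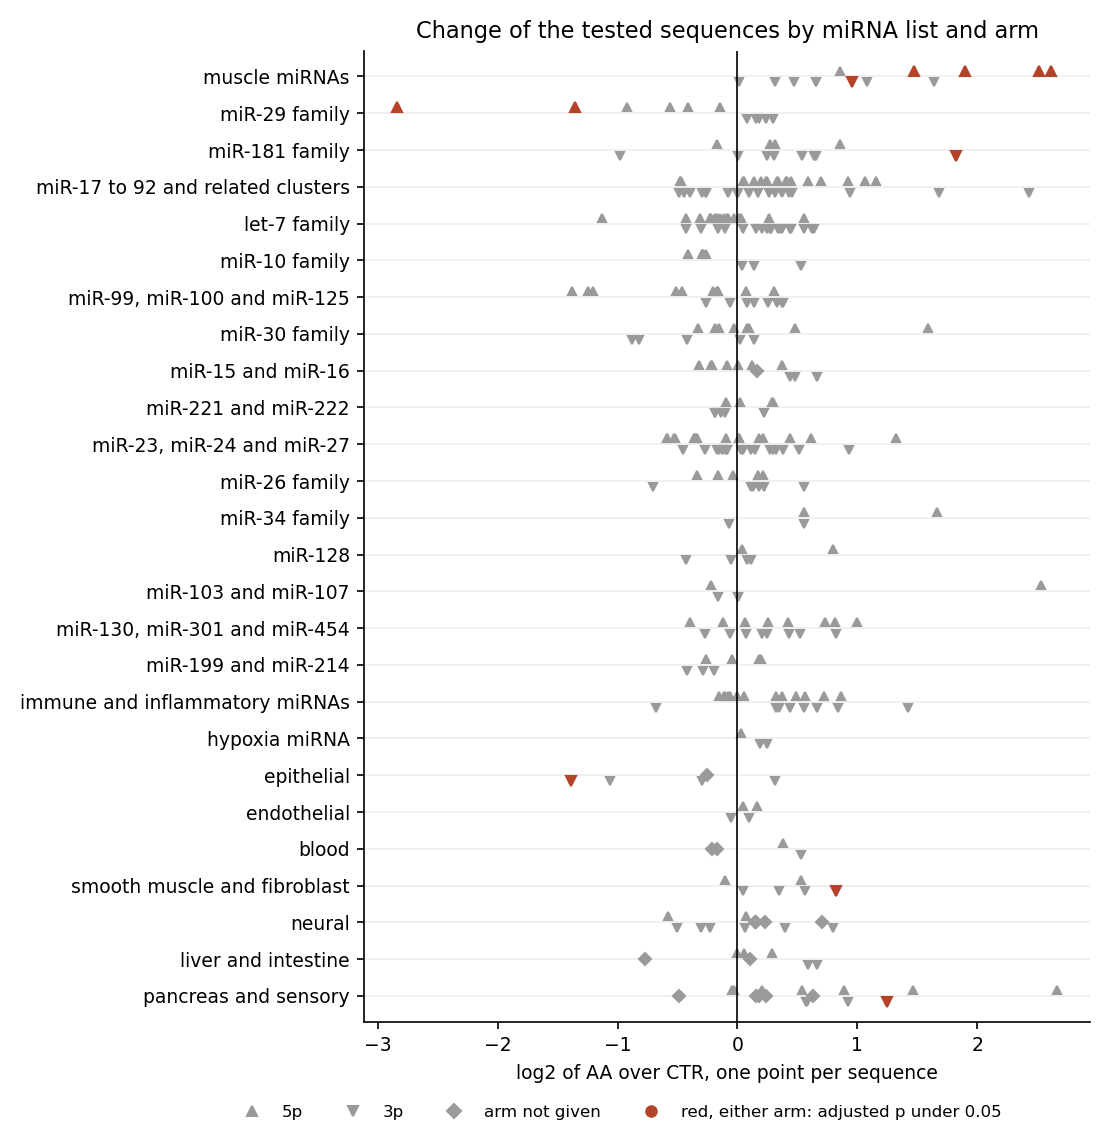
Log2 difference between AA and CTR cells of every tested distinct sequence (points) in each of the 26 miRNA lists. The muscle list has all 13 points above 0 and a median of 0.96; the medians of the other lists lie between -0.30 (epithelial) and 0.56 (miR-34).

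Of the 5 most abundant sequences, miR-206 included, none passed the threshold. miR-21, the leading sequence, had 2.63e6, 2.68e6 and 2.91e6 normalized reads in AA libraries and 2.84e6, 2.89e6 and 2.80e6 in CTR libraries, with overlapping groups (log2 difference -0.06, SE 0.08, adjusted p = 0.724, 95% interval -0.24 to 0.12). miR-146 had a difference of 0.37 (adjusted p = 0.347) and miR-199-5p of -0.27 (adjusted p = 0.297). miR-22b had 6.15e5, 6.15e5 and 7.11e5 normalized reads in AA libraries and 7.97e5, 8.02e5 and 7.48e5 in CTR libraries. The AA libraries lay below the CTR libraries, but the difference of -0.28 did not pass (adjusted p = 0.146).

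Of the lists of growth-related families, 0 of 37 tested sequences of the miR-17 to 92 clusters, 0 of 34 of let-7, 0 of 36 of miR-23, miR-24 with miR-27, and 0 of 18 of miR-99, miR-100 and miR-125 passed the threshold, with medians of 0.25, 0.02, -0.09 and -0.11. At an unadjusted p under 0.05 they had 10, 3, 1 and 3 sequences. The let-7 family, which holds back proliferation in many animals, leaned by arm, with a median of -0.13 for 16 products of the 5p arm and of 0.28 for 18 products of the 3p arm. In the miR-10 family all 5 products of the 5p arm had values below 0 (median -0.29) and all 3 of the 3p arm above 0 (median 0.14). miR-30 leaned the other way, with a median of 0.03 for 8 products of the 5p arm and -0.42 for 5 of the 3p arm. No single sequence of these lists was called, although the 5p sum and the arm ratio of miR-19 were.

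The members with the smallest p in these families illustrate the sizes involved. mir-19b-1-p5 had 86.5, 78.3 and 48.9 normalized reads in AA libraries and 39.9, 24.2 and 35.4 in CTR libraries (log2 difference 1.07, adjusted p = 0.111). miR-92a-3p had a difference of -0.49 (adjusted p = 0.111), let-7a-3-3p of 0.43 (adjusted p = 0.176) and let-7a-1-p3 of 0.56 (adjusted p = 0.234). miR-30a-4-3p had 260, 242 and 216 normalized reads in AA libraries and 331, 484 and 528 in CTR libraries (-0.88, adjusted p = 0.0811), and miR-30e-3p differed by -0.83 (adjusted p = 0.0813). None of these passed, although the groups did not overlap in any of them other than let-7a-1-p3. miR-26a-3-3p came nearest, at -0.70 (adjusted p = 0.0575), while miR-26a-2-3p stood at 0.55 (adjusted p = 0.347). miR-10b and miR-10c had differences of -0.42 (adjusted p = 0.188) and -0.30 (adjusted p = 0.305). miR-125a and miR-125b had differences of -0.46 (adjusted p = 0.186) and -0.51 (adjusted p = 0.242). mir-27a-p5 stood at -0.52 (adjusted p = 0.169) and miR-27b-5p at -0.34 (adjusted p = 0.347).

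Further lists had 0 calls each (limma, with 0 to 3 sequences each at an unadjusted p under 0.05). Their medians were 0.12 for miR-15 and miR-16 (11 tested), -0.10 for miR-221 and miR-222 (9), 0.13 for miR-26 (11), -0.03 for miR-30 (13), -0.28 for miR-10 (8), 0.56 for miR-34 (4), 0.06 for miR-128 (6), 0.001 for miR-103 and miR-107 (5), 0.25 for the miR-130 family with miR-301 and miR-454 (16) and -0.20 for miR-199 and miR-214 (7). Their members with the smallest p were miR-16b (-0.32, adjusted p = 0.234), mir-15a-p3 (0.44, adjusted p = 0.282), miR-222a-5p (0.28, adjusted p = 0.492), miR-221 (-0.19, adjusted p = 0.519), miR-34 (0.56, adjusted p = 0.228), mir-128-2-p5 (0.80, adjusted p = 0.233), miR-107a-5p (2.53, adjusted p = 0.277), miR-103 (-0.17, adjusted p = 0.551), mir-301a-p5 (0.73, adjusted p = 0.122), miR-130b (0.52, adjusted p = 0.297) and miR-199a (-0.42, adjusted p = 0.347). miR-107a-5p was listed at 0 in CTR replicates 1 and 2, so its difference rests on the pseudocount. The second member of the miR-128 list, a scarce miR-128-3p product, had -0.43 (adjusted p = 0.794) and turned to 0.18 without AA replicate 1. In the miR-181 list the second was miR-181a-5-3p, at 0.54 (adjusted p = 0.258).

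In the immune list, 21 sequences were tested with a median of 0.35 and 0 calls (limma, 3 at an unadjusted p under 0.05); its leading members were mir-21-1-p3 (1.43, adjusted p = 0.145) and miR-146a (0.72, adjusted p = 0.231). The hypoxia-responsive miR-210 had 30159, 30567 and 34892 normalized reads in AA libraries and 33335, 24999 and 26276 in CTR libraries (0.18, adjusted p = 0.551), in a list of 4 with a median of 0.22; a longer miR-210-3p product had 0.25 (adjusted p = 0.794) and -0.10 without AA replicate 3. Among the lists of other cell types, endothelial miR-126-3p had 92404, 99292 and 96593 normalized reads in AA libraries and 81891, 84869 and 104485 in CTR libraries (0.10, adjusted p = 0.702; -0.0029 with library weights), and miR-126a-3p had -0.06 (adjusted p = 0.849; 0.014 without AA replicate 1). The 4 tested endothelial sequences had a median of 0.07, and neither this list nor the next 3 had a call (0 to 1 sequence each at an unadjusted p under 0.05). The blood list had a median of 0.11 over 4 sequences, led by miR-451 (-0.21, adjusted p = 0.652) and miR-142 (0.38, adjusted p = 0.653). The neural list had 0.11 over 12, led by miR-129 (-0.58, adjusted p = 0.258) and miR-218b (0.71, adjusted p = 0.411). The liver and intestine list had 0.10 over 7, with mir-194b-p3 at 0.59 (adjusted p = 0.487) after miR-122. In the smooth muscle and fibroblast list (6 tested, median 0.44), 1 sequence was called, miR-145-3p, followed by a longer miR-143 product (0.35, adjusted p = 0.33). In the pancreas and sensory list (16 tested, median 0.55), 1 was called, mir-217-p3, followed by miR-216b (0.54, adjusted p = 0.14).

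The predicted candidates, which the deposited table lists without a miRNA name, numbered 295, of which 113 passed the minimum; some of them, such as PC-3p-5483_456, extend or closely resemble a named miRNA. Of these, 62 had values above 0 and 51 below (median 0.09), and PC-3p-5483_456 was the 1 called. Together the candidates took 0.127 to 0.140% of normalized reads in AA libraries, against 0.149 to 0.155% in CTR libraries, which did not overlap (exact permutation p = 0.1, the smallest possible).

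The IGF1 libraries place the amino acid response beside that of a growth factor given on the restriction medium. The direct contrast of AA with IGF1, which uses the same AA libraries, found 5 of 594 entries higher in AA cells (0.842%), 4 of which were among the 14 above. miR-181b-3p had 177, 177 and 195 normalized reads in IGF1 libraries, close to the CTR level, and the AA minus IGF1 difference was 1.76 (SE 0.19, adjusted p = 0.00252). miR-1 had 29569, 36107 and 27349 in IGF1 libraries (AA minus IGF1 0.90, adjusted p = 0.0168). miR-145-3p had 2283, 2350 and 2496 in IGF1 libraries (0.94, adjusted p = 0.031). In these 3 the AA libraries exceeded all others. miR-133a-2-5p, with 4907, 3749 and 3918 normalized reads in IGF1 libraries, lay between the levels of AA and CTR cells (AA minus IGF1 1.12, adjusted p = 0.031). The fifth entry was mir-128-2-p5, with 135, 182 and 187 normalized reads in AA libraries, 34.2, 35.9 and 63.8 in IGF1 libraries and 66.4, 123 and 105 in CTR libraries (AA minus IGF1 1.93, adjusted p = 0.0212).

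For the other called entries the AA minus IGF1 difference did not pass the threshold. miR-1-5p had 67.6, 79.0 and 106 normalized reads in IGF1 libraries, between the levels of AA and CTR cells (AA minus IGF1 1.05, adjusted p = 0.203). miR-206-5p had 1143, 1646 and 1568 (1.09, adjusted p = 0.0617). mir-29d-p5 had 58.8, 54.4 and 88.1 (-2.07, adjusted p = 0.0617). miR-133b-5p had 2805 and 2470 in the first and second IGF1 libraries and 914 in the remaining one, an uneven group (1.12, adjusted p = 0.422). mir-217-p3 (0.41, adjusted p = 0.517) and both arms of miR-7133 (0.49, adjusted p = 0.517, and 0.52, adjusted p = 0.553) had the smallest AA minus IGF1 differences. miR-203a had -0.57 (adjusted p = 0.517), mir-29a-1-p5 -0.80 (adjusted p = 0.176) and PC-3p-5483_456 1.41 (adjusted p = 0.0886). Of the 6 arm ratios that differed from CTR, that of miR-206 was also higher in AA than in IGF1 cells, with a 5p share of 0.281, 0.316 and 0.305% in IGF1 libraries (AA minus IGF1 0.66, adjusted p = 0.0378). The arm ratios of miR-128 (minor arm 5p, 1.28, adjusted p = 0.0128) and miR-145 (minor arm 3p, 1.23, adjusted p = 0.0378) were higher in AA than in IGF1 cells too, but did not pass against CTR (0.40, adjusted p = 0.297, and 0.93, adjusted p = 0.0726). For miR-1 the 5p share was 0.225, 0.215 and 0.380% in IGF1 libraries, within reach of the AA values (0.15, adjusted p = 0.927).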

How the data were processed

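Small RNA was sequenced in 9 libraries of sea bream fast muscle cells. The authors trimmed the reads, matched unique sequences of 18 to 26 nt to miRNA precursors and deposited 1 table of signal per entry, as normalized reads (formula not given in the sources used here), with group means and their own p-values, which were not used. Depth was inferred from the step of low values; 79.3 to 83.1% came out as whole reads (within 0.02 read), so no count model was run. Entries reaching 10 normalized reads in 3 or more libraries were tested with limma 3.58.1 (R 4.3.3) on log2(value + 1), with trend, all 9 libraries in 1 model and 2-sided Benjamini-Hochberg adjusted p under 0.05. Sequences were also summed by number and arm. The arm came from the name (311 entries), else from the edit distance to a same-number entry with a named arm (5 or less, the same arm, 123 entries; 6 or more from the only named arm, the opposite arm, 90); 43 named entries have none. Single values per library were compared by exact permutation. Scripts were tested on simulated data. Named are all called entries with both arms and their sums, called arm ratios, the 5 most abundant sequences, the muscle list and the 1 or 2 entries with the smallest p of each other list; further called sums were named after their values were seen. Members and lists were chosen with earlier results of these data known. Alternatives covered scaling, pseudocount, minimum, libraries in the fit, block, weights and trend.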

Additional observations from a re-analysis of the deposited data

How the results depend on the processing

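Precision is limited by 3 libraries a group and, under about 6 normalized reads, by the listing minimum. Against 14 entries (11 higher, 3 lower), counts ran from 8 (without AA replicate 2) to 40 (without CTR replicate 1: 26 higher, 14 lower) on leaving out 1 library; the 19 sums ran from 9 (without AA replicate 2 or CTR replicate 2) to 33 (without CTR replicate 1), the 6 arm ratios from 1 to 17 and, of the called entries, those that also differed from IGF1 cells from 1 to 7 (6 higher, 1 lower, without CTR replicate 1) against 4. Library weights gave 104 entries (58 higher, 46 lower), 50 sums, 20 ratios and 9 entries against IGF1. Quantile normalization gave 16 entries with 56.2% higher, against 78.6% before, and a minimum of 50 gave 20 with 65% higher. With AA and CTR libraries only, 11 sums passed; without trend, 1 entry against IGF1. Whether replicate numbers mark a shared culture is not labelled. Deviations of the same number correlated at 0.27, -0.11 and 0.07 between AA and CTR and at 0.32, 0.05 and 0.35 between AA and IGF1. Between CTR and IGF1 they correlated at 0.40, 0.32 and 0.30. Libraries of different numbers gave mostly negative correlations, from -0.38 to 0.26. Deviations were taken from each group's own mean, which ties these values to the same-number ones, so they are no separate sign of pairing. The same-number correlations are a hint of pairing, clearest for CTR with IGF1 but not seen for every pair, so the main model has no block. With the replicate number as a block, 31 entries (61.3% higher), 32 sums and 7 entries against IGF1 passed. In all of these the cause was not tested. The 8 entries miR-181b-3p, miR-133a-2-5p, miR-1-5p, mir-217-p3, miR-1, miR-206-5p, mir-29d-p5 and miR-133b-5p passed under all 23 alternatives. mir-29a-1-p5 and miR-203a missed only without AA replicate 2 (adjusted p = 0.0541 each). No called value changed sign. The longest miR-206-3p product (0.02) turned to -0.0039 with equal totals, -0.0085 with trimmed mean scaling, -0.022 with quantile normalization, -0.10 without CTR replicate 3 and -0.28 without AA replicate 3 (-0.28 to 0.27 on leaving out 1 library). The scarce miR-128-3p product (-0.43) turned to 0.051 with weights and 0.18 without AA replicate 1 (-0.80 to 0.18), miR-210-3p (0.25) to -0.10 without AA replicate 3 (-0.10 to 0.43), miR-126-3p (0.10) to -0.0029 with weights, and miR-126a-3p (-0.06) to 0.014 without AA replicate 1 (-0.14 to 0.014). The values set to the highest listing minimum were an alternative chosen after seeing the data.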

Other observations

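Several short sequences end in CCA. Of 47 listed distinct sequences of 18 or 19 nt, 9 end in CCA, against 24 of 783 of 20 nt or more. Of the 7 tested short ones, 4 had values below 0, all from 2 miRNA numbers, and 3 above 0, beside 249 of 594 entries below 0. miR-10926 had 215, 156 and 174 normalized reads in AA libraries and 294, 475 and 262 in CTR libraries (log2 difference -0.88, limma adjusted p = 0.0962), and a variant of it that differs in 1 base had 55.6, 36.6 and 55.9 in AA libraries and 109, 119 and 69.8 in CTR libraries (-0.99, adjusted p = 0.0886). miR-10955 had 2017, 1487 and 2231 in AA libraries and 7083, 4161 and 2394 in CTR libraries (-1.13, adjusted p = 0.145). In all 3 the AA libraries lay below the CTR libraries, and none passed the threshold. The remaining one below 0, a longer miR-10955 product, had -0.82 (adjusted p = 0.487). miR-7550 (0.27, adjusted p = 0.702), a variant of it listed at 0 in CTR replicates 2 and 3 (1.77, adjusted p = 0.519) and PC-3p-12825_171 (0.76, adjusted p = 0.273), which also end in CCA, had values above 0. Mature tRNAs end in CCA too. Whether these sequences come from tRNA was not tested.
miR-10926: aTCCCAGCggtgcctcca
miR-10955: tCCCCGTAcgggccacca

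A pair of further miRNAs had values that a reader may want to look at, both uneven within groups. miR-34c had 89.6, 57.4 and 615 normalized reads in AA libraries and 24.2, 41.5 and 94.2 in CTR libraries, so that AA replicate 3 carries its difference of 1.67 (adjusted p = 0.487). mir-21-1-p3, the minor arm product of the most abundant miRNA, had 20202, 14129 and 13470 normalized reads in AA libraries and 12137, 3350 and 4859 in CTR libraries. CTR replicate 1 was close to the AA libraries, and the difference of 1.43 (adjusted p = 0.145) had an adjusted p as low as 0.00321 among the alternatives, passing in 3 of 23, 1 of them the fit without CTR replicate 1. Grouped by seed, the 12 let-7 sequences with GAGGTAG ran from -0.31 to 0.03, and the 6 miR-1 and miR-206 sequences with GGAATGT from 0.02 to 1.08.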
